A study of Mus musculus with 18 samples.

Results

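The boundaries described here are the edges of chromosome domains on mouse autosomes that had no loop anchor nearby. A domain is a block of chromosome that contacts itself more than it contacts the sequence outside. A loop joins a pair of distant places, called anchors, whose contact stands out from the background around it. Each distinct start or end of a domain counted as 1 boundary. Boundaries were chosen by their measured distance to loops: those with no anchor midpoint of any listed loop within 100 kb on either side were taken, and are called anchor-free in what follows. The rule took 5289 of the 16231 autosomal boundaries, a share of 32.6% (95% Wilson interval 31.9 to 33.3%). The domain list gave 17433 boundaries in all, of which 1202 were on the X chromosome. X was left out by the rule. By the same distance 761 of its boundaries (63.3%) were anchor-free.

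The lists came from Micro-C, in which micrococcal nuclease cuts chromatin between nucleosomes and ends that lie close together are ligated. The cells were G1E-ER4, a mouse erythroblast line that carries the erythroid transcription factor GATA1 fused to a hormone receptor domain. All 18 samples were of a subline in which LDB1, a protein that links transcription factors bound at distant sites, is joined to an auxin-inducible degron (AID), through which auxin leads to loss of the tagged protein. Untreated cells gave 9 of the samples and cells given auxin for 4 h gave the other 9, and the untreated cells carried the degron too. Whether the subline is 1 clone is not given in the sources used here.

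Values per sample or per treatment were not analysed here, because the files give only coordinates, of 20926 loops and of 13483 domains, each as a single list for the series. Which samples entered the lists is not given in the sources used here, and the depth behind them is unknown. There were therefore no replicates and no test. The spread over the 19 autosomes stands beside the main values, and it is not an error between cell cultures. Wilson intervals cover the counting of boundaries or domains only, and neighbouring boundaries that share domains are not independent.

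Loops between domain edges are widely attributed to cohesin, a ring complex that extrudes DNA until it is stopped by the insulator protein CTCF. Such loops leave an anchor at each edge of the domain. Domain edges can also arise without a loop, for example where active and inactive chromatin compartments meet, or within long tracts of inactive chromatin. LDB1 acts at enhancers and promoters of erythroid genes, and loops between them add anchors that need not lie at a domain edge. No gene is named below, since no gene table of the build of the lists was used here, and for the same reason no sequence is shown.

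Anchor-free boundaries were mostly far from any anchor rather than just past the limit. Their median distance to the nearest anchor midpoint was 600 kb (quartiles 302.5 and 1107.5 kb), the nearest being at 101 kb and the farthest at 5752.5 kb. There were 4532 (85.7%) farther than 200 kb, 3029 (57.3%) farther than 500 kb, 1504 (28.4%) farther than 1000 kb and 388 (7.34%) farther than 2000 kb. The other 10942 autosomal boundaries had a median distance of 15 kb. These distances chose the groups and are given as a description. Few boundaries lay near the limit. The 95 to 100 kb range held 93 boundaries on the near side, of which 61 were at exactly 100 kb, and the next 5 kb held 40 on the far side.

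The share of anchor-free boundaries varied between autosomes and averaged 32.3% ± 7.71 (SD over 19 autosomes). It was highest on chromosome 4, at 443 of 1023 boundaries (43.3%), followed by chromosome 16 with 264 of 634 (41.6%) and chromosome 10 with 335 of 814 (41.2%). It was lowest on chromosome 19, at 63 of 418 (15.1%), then chromosome 11 with 173 of 900 (19.2%) and chromosome 9 with 189 of 824 (22.9%). The share tended to be lower on chromosomes with more loops per Mb, a relation that was not tested, but the order did not follow it exactly. Chromosome 4 had 8.40 loops per Mb, more than chromosome 14, which had 6.09 loops per Mb and 38.6% anchor-free boundaries. Chromosomes 11 and 19, with the lowest shares, had 13.2 and 12.3 loops per Mb, against 7.14 and 7.12 on chromosomes 16 and 10. Chromosome 7 had 24.2% anchor-free boundaries although 42.4% of its span lay far from anchors, and domains covered just 77.0% of that part of it.

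**Figure D1:**
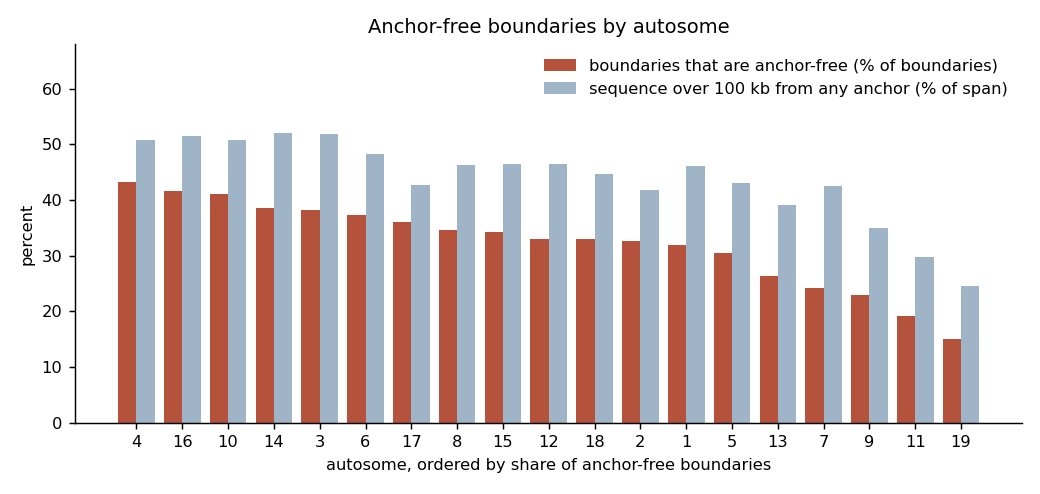
Share of boundaries that were anchor-free (red) and share of the span lying over 100 kb from any anchor midpoint (grey) on each autosome, both in percent. The red bars fall from 43.3% on chromosome 4 to 15.1% on chromosome 19, and on each autosome the red bar is lower than the grey one.

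Sequence farther than 100 kb from any anchor made up 1073.5 Mb of the 2409.7 Mb autosomal span, or 44.5%. Anchor-free boundaries were thinner in that sequence than the other boundaries were in the rest. Their density was 4.93 per Mb, against 8.19 per Mb for the others, and it was the lower of the pair on 19 of 19 autosomes. Most of this gap came from boundaries that lie side by side. After boundaries closer than 20 kb were merged, 3930 anchor-free and 5600 other boundaries remained, at 3.66 and 4.19 per Mb. The same distance to anchors divided both the sequence and the boundaries, so these densities are given as a description. Domains covered 96.2% of the sequence far from anchors and 99.3% of the rest. The sequence far from anchors was thus nearly all divided into domains. A position far from anchors lay in 3.09 domains on average and a position elsewhere in 2.67, and the first value was the higher on 18 of 19 autosomes, chromosome 7 being the exception.

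Anchor-free boundaries came in long stretches. The next boundary along the chromosome was also anchor-free for 4548 of the 5284 that had a next boundary (86.1%), while 727 of 10928 other boundaries (6.65%) were followed by an anchor-free one. This follows in part from the rule, since close neighbours share much of the sequence within 100 kb that sets their class. The median distance between neighbouring anchor-free boundaries was 85 kb. A run was defined as consecutive boundaries that were all anchor-free. There were 741 runs with a median of 4 boundaries (quartiles 1 and 9) and at most 69. Runs of 5 or more numbered 318 and held 4435 anchor-free boundaries (83.9%), with an average over autosomes of 82.6% ± 6.06 (SD, 19 autosomes; lowest on chromosome 19 at 66.7%, highest on chromosome 17 at 90.9%). Their median length from first to last boundary was 1.26 Mb, and together they extended over 550.5 Mb. The 65 runs of 20 or more boundaries held 38.0% of the anchor-free boundaries, and every autosome had at least 1 such run. At the other end, 195 anchor-free boundaries (3.69%) stood alone between boundaries with an anchor nearby. A run does not by itself mean an unbroken stretch without anchors: 26 of the 318 runs of 5 or more had an anchor somewhere between their first and last boundary.

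**Figure D2:**
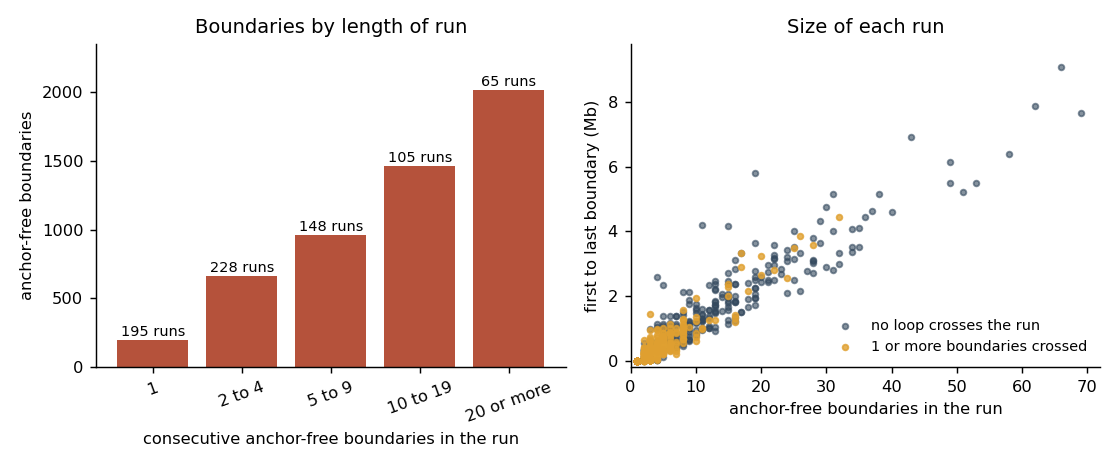
Left, number of anchor-free boundaries (y axis) in runs of each length (x axis, consecutive boundaries), with the number of runs above each bar; the 65 runs of 20 or more hold the most boundaries. Right, each of the 741 runs by its number of boundaries and its length in Mb, coloured by whether any of its boundaries was crossed by a loop. No run of over 32 boundaries was crossed, and none could be. Their flanking anchors were farther apart than the longest listed loop, or lay on the left alone.

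In windows of 10 Mb the share of anchor-free boundaries ranged from none to all, without a clear divide. Of 247 windows with 20 or more boundaries, most (147) had 10 to 50% anchor-free boundaries. There were 52 with over 50%, among them 7 with over 80%, and 48 with under 10%, among them 8 with none. The 7 windows over 80% were on 6 chromosomes, and each of these chromosomes also had a window under 10%. The highest was the last window of chromosome 17, from 90 Mb on, where 48 of 48 boundaries were anchor-free. It was followed by 110 to 120 Mb of chromosome 1 with 68 of 72 and by 70 to 80 Mb of chromosome 4 with 73 of 79.

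The 10 runs with the most boundaries lay on 9 chromosomes and held 540 anchor-free boundaries (10.2%) and 428 whole domains in 64.9 Mb. No anchor lay within them, and no loop crossed any boundary in them. The lists impose the latter, as the flanking anchors were farther apart than the longest loop, 1995 kb, or lay on the left alone. Positions are those of the files, whose build is mm9 per the submitters' processing notes, and a boundary position is the last base before the boundary. The run with the most boundaries had 69, between 17695000 and 25355000 on chromosome 15. It held 56 domains with sizes of 100 to 1640 kb and a median of 370 kb, and the anchors on its flanks were 8.48 Mb apart. The longest in sequence had 66 boundaries over 9.09 Mb, between 66080000 and 75165000 on chromosome 16. Its 55 domains had larger sizes, the median being 480 kb. Its flanking anchors were 9.76 Mb apart, the widest interval between neighbouring anchors on any autosome.

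The next runs by number of boundaries were 4.59 to 7.89 Mb long and differed in make-up. The share of boundaries that were both an end and a start was 34.0% in one run on chromosome 17 and 77.5% in the run on chromosome 4, and the median gap between neighbouring boundaries was 27.5 kb in that run on chromosome 17 and at most 110 kb. Chromosome 1 had 62 boundaries between 110245000 and 118135000, and the 47 domains between them had sizes around a median of 400 kb. Chromosome 6 had 58 boundaries between 74855000 and 81255000, with 48 domains of a smaller median size, 260 kb. Chromosome 17 appeared with a pair of runs. The first, between 58195000 and 63405000, had 51 boundaries and 38 domains, whose sizes had a median of 410 kb. The second, between 89410000 and 94895000, had 53 boundaries and 38 domains, and the median of their sizes was 370 kb. This second run reached the last domain of the chromosome, the last anchor of chromosome 17 being at 89142500, so that it was bounded by an anchor on its left side alone. The remaining 4 runs lay on chromosome 10 (49 boundaries, 45665000 to 51815000), chromosome 2 (49 boundaries, 95355000 to 100855000), chromosome 14 (43 boundaries, 89755000 to 96685000) and chromosome 4 (40 boundaries, 27055000 to 31645000). Over the 10 runs the median domain size was between 260 and 480 kb, and at most 3 to 6 domains spanned a boundary.

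**Figure D3:**
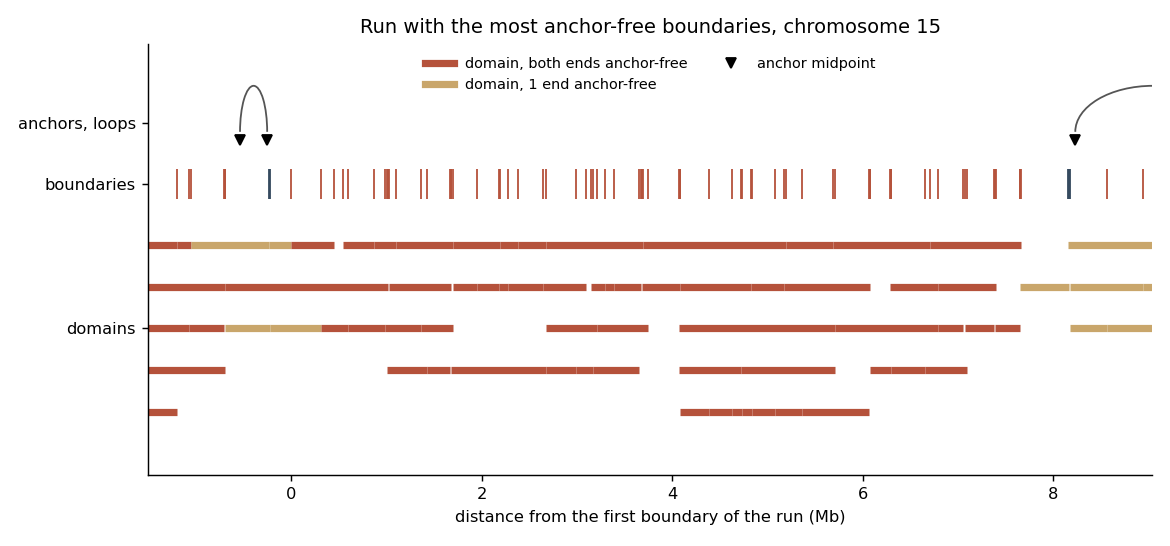
The run of 69 anchor-free boundaries on chromosome 15, drawn to scale by distance in Mb from its first boundary. Red ticks are anchor-free boundaries and dark ticks the others, bars are domains placed on separate rows where they overlap, triangles are anchor midpoints and arcs are loops; the flanking anchors lie 8.48 Mb apart with layered domains between them.

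Wide intervals between neighbouring anchors were where most of these boundaries lay. There were 366 intervals over 1000 kb, adding up to 822.9 Mb, and they held 4271 anchor-free boundaries (80.8%). The 16 intervals over 5 Mb added up to 107.1 Mb and held 671 of them (12.7%). Between neighbouring anchors, an anchor-free boundary needs an interval over 200 kb, and the 1840 such intervals added up to 1426.0 Mb. Wide intervals have the most room under the rule, so this placement follows in part from it. The 5 widest with a boundary inside were those around the runs on chromosomes 16, 15, 1, 14 and 6, at 9.76, 8.48, 8.29, 7.98 and 7.30 Mb, and they held 71, 74, 62, 48 and 63 boundaries. An interval of similar width was different. On chromosome 7 the anchors at 39329000 and 46542500 were 7.21 Mb apart with 1 boundary and no whole domain between them. It was picked out with its values in view, and whether reads can be mapped there was not tested.

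The boundaries farthest from any anchor, at most 1 from each run, were chosen by the distance to the nearest one, a choice that favours the middle of wide intervals and so similar distances on both sides. On chromosome 16 the boundary at 70585000 was 5050 kb from the nearest anchor on the left and 4707.5 kb from that on the right. It separated a domain of 1980 kb from a domain of 1590 kb. On chromosome 15 the boundary at 21765000 was 4322.5 and 4160 kb from anchors and started domains of 650 and 1640 kb. The boundary at 114115000 on chromosome 1 lay 4120 and 4168 kb from anchors, between domains of 120 and 400 kb, inside 4 larger domains. The boundary at 93365000 on chromosome 14 lay 3982.5 and 4000 kb from anchors, at the end of a domain of 1990 kb. The largest distance of all, 5752.5 kb, belonged to the last boundary of chromosome 17, which has anchors on the left side alone. In all, 97 anchor-free boundaries had anchors on 1 side only.

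Anchor-free boundaries more often had exactly the same coordinate for the end of a domain and the start of the next. This held for 2901 of them (54.8%), compared with 40.3% of all autosomal boundaries and 33.3% of those with an anchor nearby. The share was higher for anchor-free boundaries on 19 of 19 autosomes, averaging 54.2% ± 5.84 against 33.5% ± 3.83 (SD over 19 autosomes). The order turned when a start and an end within 20 kb of the boundary were enough: 89.8% of anchor-free and 95.3% of the other boundaries then had both. The difference was thus found at exact coordinates and not at this tolerance, where the start and the end need not belong to adjoining domains. Among boundaries at multiples of 5 kb alone, the exact shares were 56.3% for anchor-free boundaries and 36.8% for the others. The part of the calling resolution in this difference was not tested. Neighbouring boundaries were 20 kb or less apart in 35.7% of pairs where both were anchor-free and in 54.7% of pairs where neither was. Where they were farther apart than that, the median distance was 170 kb between anchor-free boundaries and 250 kb between the others.

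Their coordinates also lay on a coarser pattern. Of the anchor-free boundaries, 4615 (87.3%) had a position ending in the digits 5000, against 62.8% of the others. The number lying off the 5 kb grid was 164 (3.10%), where 12.9% of all autosomal boundaries and 17.6% of those with an anchor nearby did so. The share off the grid was lower for anchor-free boundaries on 19 of 19 autosomes. Among boundaries with an anchor nearby it was 18.6% at 0 to 10 kb, 19.1% at 10 to 20 kb and 17.8% at 20 to 50 kb, and lower, 11.2%, at 50 to 100 kb alone. It was 7.22% at 100 to 150 kb and 2.33% beyond 1000 kb. How positions off the grid arose is not given in the sources used here, and the part of the calling resolution in these differences was not tested.

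Anchor-free boundaries were less often the edge of a single domain than the others. There were 2258 (42.7%) used by 1 domain, against 55.8% of all autosomal boundaries and 62.1% of those with an anchor nearby. Use by 2 domains was found for 2663 (50.3%), against 36.4% of all and 29.6% of those with an anchor nearby. A boundary that is both an end and a start is by definition used by at least 2, so this is not a separate result from the exact sharing above. Use by 3 or more was found for 368 (6.96%), against 8.29% of the others. A few collected many domains. The boundary at 46295000 on chromosome 2 was the edge of 8 domains, which equalled the highest number at any autosomal boundary. It ended domains of 250, 450, 890, 1350 and 1560 kb, each inside the next larger one, and started domains of 340, 1000 and 1300 kb, likewise stacked. No domain spanned it, and the nearest anchors were 1157.5 kb to the left and 1562.5 kb to the right. Also on chromosome 2, the boundary at 16235000 ended 4 domains of 510 to 1610 kb and started 3 of 260 to 880 kb, 990 kb from the nearest anchor. A pair of boundaries was used by 6 domains each, at 25575000 on chromosome 3 and at 78215000 on chromosome 4. Another 9 boundaries were used by 5 domains each, the first of them in chromosome order being at 64905000 on chromosome 2. None of the 5 boundaries named here was crossed by a loop. None could be, since the anchors on their left and right were farther apart than the longest listed loop, 1995 kb.

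Anchor-free boundaries were spanned by more domains than the others were. A domain was said to span a boundary when it started before and ended after it. Domains that span the same boundary need not lie inside each other, since domains can also overlap in part. Anchor-free boundaries were spanned by 2.60 domains on average and the others by 2.05, and the mean was higher on 19 of 19 autosomes. To leave out domains that overlap a boundary by a few bins, an overhang of more than 20 kb on each side was also required. The means were then 2.06 and 1.07 domains, over autosomes 2.07 ± 0.195 and 1.06 ± 0.151 (SD over 19 autosomes), with no overlap between the ranges of 1.67 to 2.35 and 0.820 to 1.35. By this measure 451 anchor-free boundaries (8.53%) were inside no domain, compared with 36.5% of the others, and 33.8% against 10.2% were inside 3 or more. By distance from the nearest anchor, the mean was 1.06 domains at 0 to 10 kb, 0.976 at 10 to 20 kb and 1.02 at 20 to 50 kb. It was 1.44 at 50 to 100 kb, still inside the limit, and 1.81 at 100 to 150 kb. Farther out it lay between 1.94 and 2.15 with no steady rise, and it was 2.04 beyond 1000 kb.

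Of the 12571 autosomal domains, 3028 (24.1%) had both ends anchor-free, 2748 (21.9%) had 1 end anchor-free and 6795 (54.1%) had none. Domains with both ends anchor-free had a median size of 360 kb (95% interval from order statistics 340 to 370 kb), with quartiles of 240 and 640 kb. Domains with no end anchor-free had a median of 383 kb (377 to 390 kb) and quartiles of 255 and 657 kb. The first median was the lower one on 15 of 19 autosomes and the higher one on 4, and over autosomes the medians averaged 361 ± 34.1 and 386 ± 23.1 kb (SD), so that the difference was smaller than the spread of the first. Small domains were more frequent among the first: 16.4% were under 200 kb, against 9.67%. Domains with 1 end anchor-free were the largest, with a median of 570 kb (550 to 590 kb), above both other classes on 19 of 19 autosomes. Such a domain reaches from the neighbourhood of an anchor to a place without one, so its size is not independent of the rule.

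The sizes depended on the place in the nesting. Among domains that held no other domain the medians were 270 kb with both ends anchor-free and 283 kb with none. Among domains inside no other domain they were 700 and 565 kb, so here the anchor-free class was the larger one. The share of domains that held no other domain was 66.3% with both ends anchor-free and 64.7% with none, with the first higher on 12 of 19 autosomes.

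Domains with both ends anchor-free were less often outermost than domains with no end anchor-free. Of the 3028, 784 (25.9%) lay inside no other domain, against 43.6% of the domains with no end anchor-free, and the share was lower on 19 of 19 autosomes. It averaged 25.7% ± 3.99 and 44.1% ± 4.15 (SD over 19 autosomes). With a tolerance of 20 kb at each end, which counts a domain as held when it sticks out by no more than that, the shares were 21.0% and 30.5%, again lower on 19 of 19 autosomes. The order was the same in each size class, from 5.04% against 22.7% at 100 to 200 kb to 74.5% against 87.4% at 1000 to 2000 kb. Domains with both ends anchor-free were inside 1.38 other domains on average, those with 1 end inside 0.952 and those with none inside 0.864. Of those with both ends anchor-free, 506 (16.7%) were inside 3 or more, compared with 8.81% with 1 end and 5.93% with none. Domains that neither held nor lay inside another made up 8.72% with both ends anchor-free and 20.1% with none. Partial overlap with another domain was frequent in both classes, at 76.0% with both ends anchor-free and 82.4% with none.

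**Figure D4:**
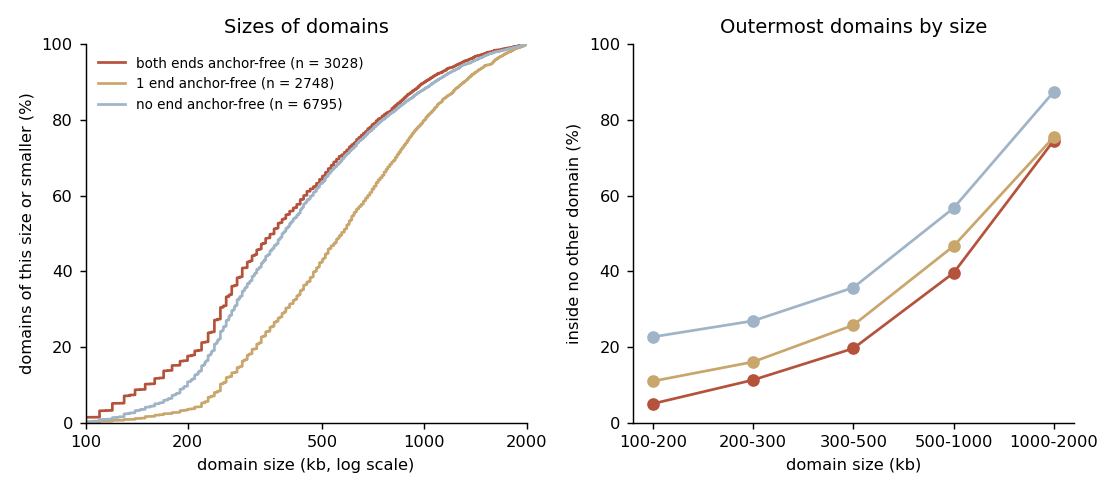
Left, cumulative share of domains (y axis, percent) by size (x axis, kb, log scale) for domains with both, 1 or no end anchor-free; the curve for 1 anchor-free end lies to the right, with a median of 570 kb. Right, share of domains inside no other domain by size class. Domains with both ends anchor-free (red) lie below those with no end anchor-free (grey) in each of the 5 classes, and those with 1 end lie between.

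Domains with both ends anchor-free were nearly free of loops, which follows in large part from the rule. Of these, 2878 of 3028 lay within 1 run, and 2814 (92.9%) contained no anchor midpoint. A loop was held by 66 (2.18%), against 823 (29.9%) of the 2748 domains with 1 end anchor-free and 82.3% of those with none. No anchor midpoint lay in 34.7% of the domains with 1 end anchor-free and in 2.90% of those with none. The 66 had at most 6 loops and a median size of 1115 kb, compared with 330 kb for those without any anchor. None of the 1239 domains of this class under 300 kb held a loop, and at that size the rule leaves room inside for spans under 100 kb at most.

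Loops nevertheless passed over some anchor-free boundaries. A loop crosses a boundary when its anchors lie on opposite sides, and over an anchor-free boundary its span must exceed 200 kb. At least 1 loop crossed 1181 anchor-free boundaries (22.3%), against 56.8% of all autosomal boundaries. For a like comparison the same room was asked of every boundary, counting loops with both anchors over 100 kb away. These crossed 41% of all autosomal boundaries and 5472 of the 10942 with an anchor nearby, and the share was lower for anchor-free boundaries on 19 of 19 autosomes. Over autosomes the share of anchor-free boundaries crossed averaged 22.7% ± 7.61 (SD), from 9.75% on chromosome 15 to 39.9% on chromosome 8. The rule acts on this comparison too, since it chooses places with few loops.

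Crossing was frequent up to 300 kb from the nearest anchor and rarer beyond. The shares were 48.6% at 100 to 150 kb, 50.3% at 150 to 200 kb and 54.2% at 200 to 300 kb, with 95% Wilson intervals that overlap. These were not lower than the 39.5% of boundaries at 50 to 100 kb. By the same measure, boundaries closer to an anchor were at 56.0% (0 to 10 kb), 50.7% (10 to 20 kb) and 44.3% (20 to 50 kb). The share was 32.7% at 300 to 500 kb and 12.9% at 500 to 1000 kb. None of the 1504 boundaries beyond 1000 kb was crossed, which the list itself imposes, as its longest loop spans 1995 kb. There were 2146 anchor-free boundaries in intervals between anchors no wider than that loop. All 1181 crossed boundaries were among them, so that more of these were crossed than not (95% Wilson interval 52.9 to 57.1%).

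**Figure D5:**
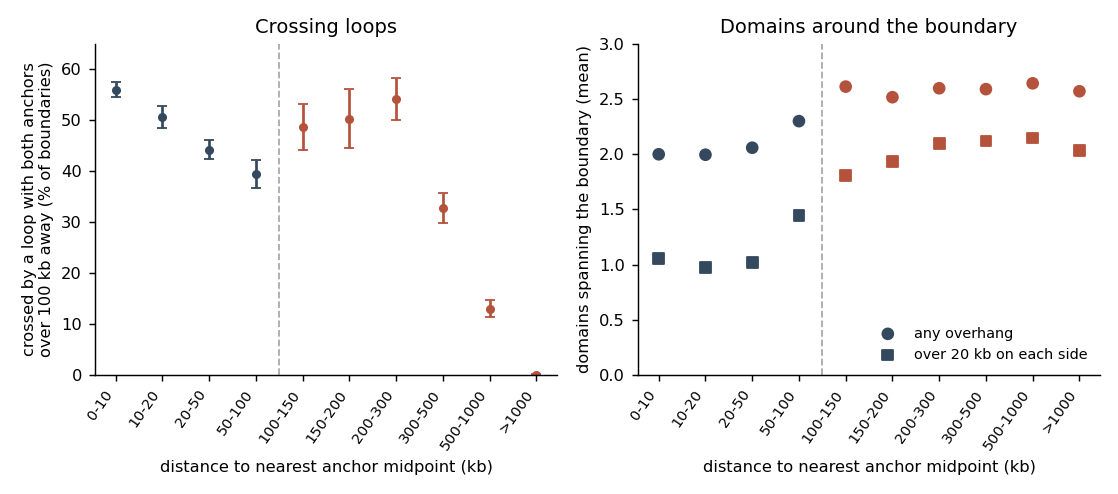
Left, share of boundaries crossed by a loop with both anchors over 100 kb away, by distance to the nearest anchor midpoint in kb; bars are 95% Wilson intervals, and anchor-free boundaries (red, right of the dashed line) are at 48.6 to 54.2% up to 300 kb and at 0 beyond 1000 kb. Right, mean number of domains spanning a boundary, with any overhang (circles) or with over 20 kb on each side (squares), which is 1.06 at 0 to 10 kb, 1.02 at 20 to 50 kb and 2.04 beyond 1000 kb.

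Crossed boundaries stood in shorter runs than uncrossed ones, with medians of 5 and 19 boundaries. Of the 1181 crossed, 609 (51.6%) were in runs of 5 or more, against 93.1% of those not crossed. The share crossed was 71.3% for boundaries standing alone, 65.7% in runs of 2 to 4, 44.1% in runs of 5 to 9, 10.3% in runs of 10 to 19 and 1.79% in runs of 20 or more. Crossed boundaries had a median distance to the nearest anchor of 272.5 kb, and uncrossed ones 767.5 kb. The interval between the anchors around them had a median width of 920 kb for crossed boundaries. It was 3097.5 kb for uncrossed ones with anchors on both sides. No listed loop spans more than 1995 kb, so boundaries in wider intervals could not be crossed. The differences in run length and distance therefore follow in large part from the lists. Crossed and uncrossed boundaries were otherwise much alike, being spanned by 2.61 and 2.59 domains on average, and 55.4% and 54.7% were both an end and a start.

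Most crossed boundaries had few loops over them, 664 having 1, 251 having 2, 147 having 3 and 119 having 4 or more. Loops were counted here and below as listed. The list holds 752 loops that overlap an earlier loop at both anchors, and these were not merged, so loop counts can include repeats of a contact. The most crossed were 3 boundaries within 10 kb of each other on chromosome 13, at 23015000, 23020000 and 23025000, each under the same number of 11 loops with spans of 660 to 1720 kb. The nearest anchors were 180 kb to the left of the first and 127.5 kb to the right of the last. Another 7 boundaries were crossed by 8 loops each, among them the pair at 174938333 and 174940000 on chromosome 1, under loops of 385 to 1545 kb. Neither place was a wide interval: the boundaries lay in short runs of 3 and 2.

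The loops that crossed anchor-free boundaries were long. They numbered 791, or 8.79% of the 9000 autosomal loops spanning over 200 kb, and had a median span of 1025 kb against 350 kb for the other 8209. Their share rose with span, from 0.515% of loops of 200 to 400 kb to 56.7% of loops of 1500 to 2000 kb. A crossing loop passed over a median of 2 anchor-free boundaries and at most 16. The 4 loops that crossed 16 each had spans of 1720 to 1855 kb, 3 of them with anchors between 129482500 and 131337500 on chromosome 6 and 1 on chromosome 4.

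At spans over 400 kb, crossing loops were more often held by a domain than other loops of similar span, a difference that was not tested. At 800 to 1000 kb, 53.9% of 128 crossing loops had both anchor midpoints inside 1 domain, compared with 36.5% of 310 other loops. At 1000 to 1500 kb the shares were 35.4% of 229 and 17.2% of 279. At 200 to 400 kb they were close, at 88.5% of 26 and 88.1% of 5023. Without regard to span the order was the opposite, at 46.0% against 76.1%, the crossing loops being longer and no domain in the list exceeding 2000 kb.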

How the data were processed

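The authors deposited 2 lists for the whole series, of loops with a pair of 10000 bp anchors each and of domains, which the name of their list calls filtered and merged. The deposited values are genome positions in bp, with no header and no other value. The build mm9 is named in the submitters' processing notes. The aligner, callers, resolutions and the samples used are not given in the sources used here. Depth is unknown, and 0 columns of per-sample values were left unmapped.

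Anchor-free boundaries, runs, nesting and crossing were computed with Python 3.11.15, numpy 2.4.6 and pandas 2.3.3, Wilson intervals with scipy 1.17.1 and plots with matplotlib 3.10.9, and the counting was tested on simulated data. The span of a chromosome ran from the first to the last coordinate in either list. Sequence far from anchors was measured in steps of 500 bp. Regions were named by rank: the 10 runs with the most boundaries, and the 5 widest anchor intervals, most crossed, most used and farthest boundaries, and the 3 autosomes with the highest and the lowest share. The members and lists were chosen with earlier results of these data known. Gene lists were not used, since the gene table given is of another build. Alternatives were other distances, loops, boundaries and chromosomes.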

Additional observations from a re-analysis of the deposited data

How the results depend on the processing

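Of 73 values recomputed under alternatives fixed with the design, 41 stayed within 1.5 times (for the count) or within the 95% interval of the value reported, and 32 moved. The share of autosomal boundaries that were anchor-free was 40.1% at a distance of 50 kb and 27.9% at 200 kb, compared with 32.6%. It was 33.6% without loops on the 2 kb grid, 34.3% with loops under 1 Mb alone, 33.5% for boundaries of domains that hold no other, 28.2% (2344 boundaries) for domains inside no other, 41.2% after merging within 20 kb, 36.3% on the 5 kb grid and 34.7% with X included. The share in runs of 5 or more, 83.9% as reported, was in the same order of settings 81.2%, 85.8%, 86.4% (under 1 Mb), 78.4%, 70.6%, 77.4% (merged) and 85.2% (X included), and 93.2% and 65.7% for runs of 3 and 10 or more. The median size of domains with both ends anchor-free was 390 kb at 50 kb and 330 kb at 200 kb, against 360 kb. It was 270 kb for domains that hold no other and 700 kb for domains inside no other, which these alternatives select by construction. The share of these domains that hold no other was 64.3% at 50 kb, 68.2% at 200 kb and 33.7% for domains inside no other. The share crossed by a loop, 22.3% as reported, was 27.5% at 50 kb, 17.8% at 200 kb, 24.1% for domains that hold no other, 18.7% for domains inside no other and 20.3% with X included. It was 8.11% with loops under 1 Mb alone, a setting that also changed which boundaries were anchor-free (5571 in number). Apart from the medians selected by construction, the causes of these moves were not tested.

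Leaving out each autosome in turn gave 4846 to 5226 anchor-free boundaries, shares of 31.9 to 33.4%, 83.4 to 84.3% in runs, medians of 350 to 360 kb, 66.1 to 66.6% holding no other domain and 21.2 to 23.0% crossed. The 20 kb tolerance was chosen after seeing the data and gave 89.8% and 95.3% for boundaries with a start and an end, and 21.0% and 30.5% for domains inside no other. No paired analysis was possible because neither list has values for single samples, and the effect of auxin with a replicate block was not run for the same reason. The share holding no other domain could not be given for domains that hold no other. A contact below the thresholds of the callers, at whatever depth they had, is missing from the list, so an anchor-free boundary is one without a listed loop nearby.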
